A study of Drosophila melanogaster with 6 samples.

Results

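The 49 genes described here carry out DNA replication and cell division in the fruit fly *Drosophila melanogaster*: the MCM helicase, origin licensing factors, the sliding clamp and its loader, ribonucleotide reductase, cyclins and their kinases, the E2F and Rb regulators, mitotic kinases, spindle checkpoint proteins and spindle motors. They were chosen by name for these roles. All 49 were found among the 17137 gene names of the deposited matrix, as 94 of its 36294 transcripts, with 24 genes listed as 1 transcript and 25 as 2 or more. RNA was sequenced from brains of third-instar larvae of the Canton-S strain, in 3 control pools and 3 alcohol pools. Each pool held about 30 brains taken 6 days after egg-laying. The alcohol pools were raised from the egg on food with 5% ethanol, and the control pools on food given water in its place. Only the alcohol food was topped up daily, with alcohol on its surface. No label says whether the pools of a group came from separate cultures, so the p-values measure the spread between these pools.

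Before a chromosome is copied, the origin recognition complex, helped by Cdt1, loads the ring-shaped MCM helicase at each origin, and cyclin-dependent kinases later fire the loaded origins and bar reloading until mitosis is over. E2F transcription factors, held in check by Rb proteins, drive the genes of this machinery. In the larval brain it runs in neuroblasts, their ganglion mother cells and the proliferating epithelia of the optic lobe, while neurons have left the cycle. In RNA from whole brains, fewer dividing cells and less RNA per dividing cell cannot be told apart.

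Levels are given as FPKM (fragments per kilobase of transcript, scaled to the fragments mapped in a pool), summed over the transcripts of a gene, and in every list the 3 control values and then the 3 alcohol values stand in the order of pools 1, 2 and 3. The genes spanned levels from 4.52 FPKM for *twe* to 108 FPKM for *Bub3* (means of the 6 pools). *Bub3* of the spindle checkpoint, the sliding clamp gene *PCNA* (99.7 FPKM), the mitotic kinase *Cdk1* (88.6 FPKM) and the E2F partner *Dp* (88.3 FPKM) were the most abundant. At the other end stood *Orc2* (8.28 FPKM), *Orc1* (5.88 FPKM) and *twe*, a Cdc25 phosphatase known for its role in the germ line, whose own markers summed to 2.55 to 6.58 FPKM in the control pools and 2.57 to 3.33 FPKM in the alcohol pools. The mean read depth per base ran from 10.2 to 20.2 in *twe* and from 284 to 465 in *Bub3*.

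**Figure D1:**
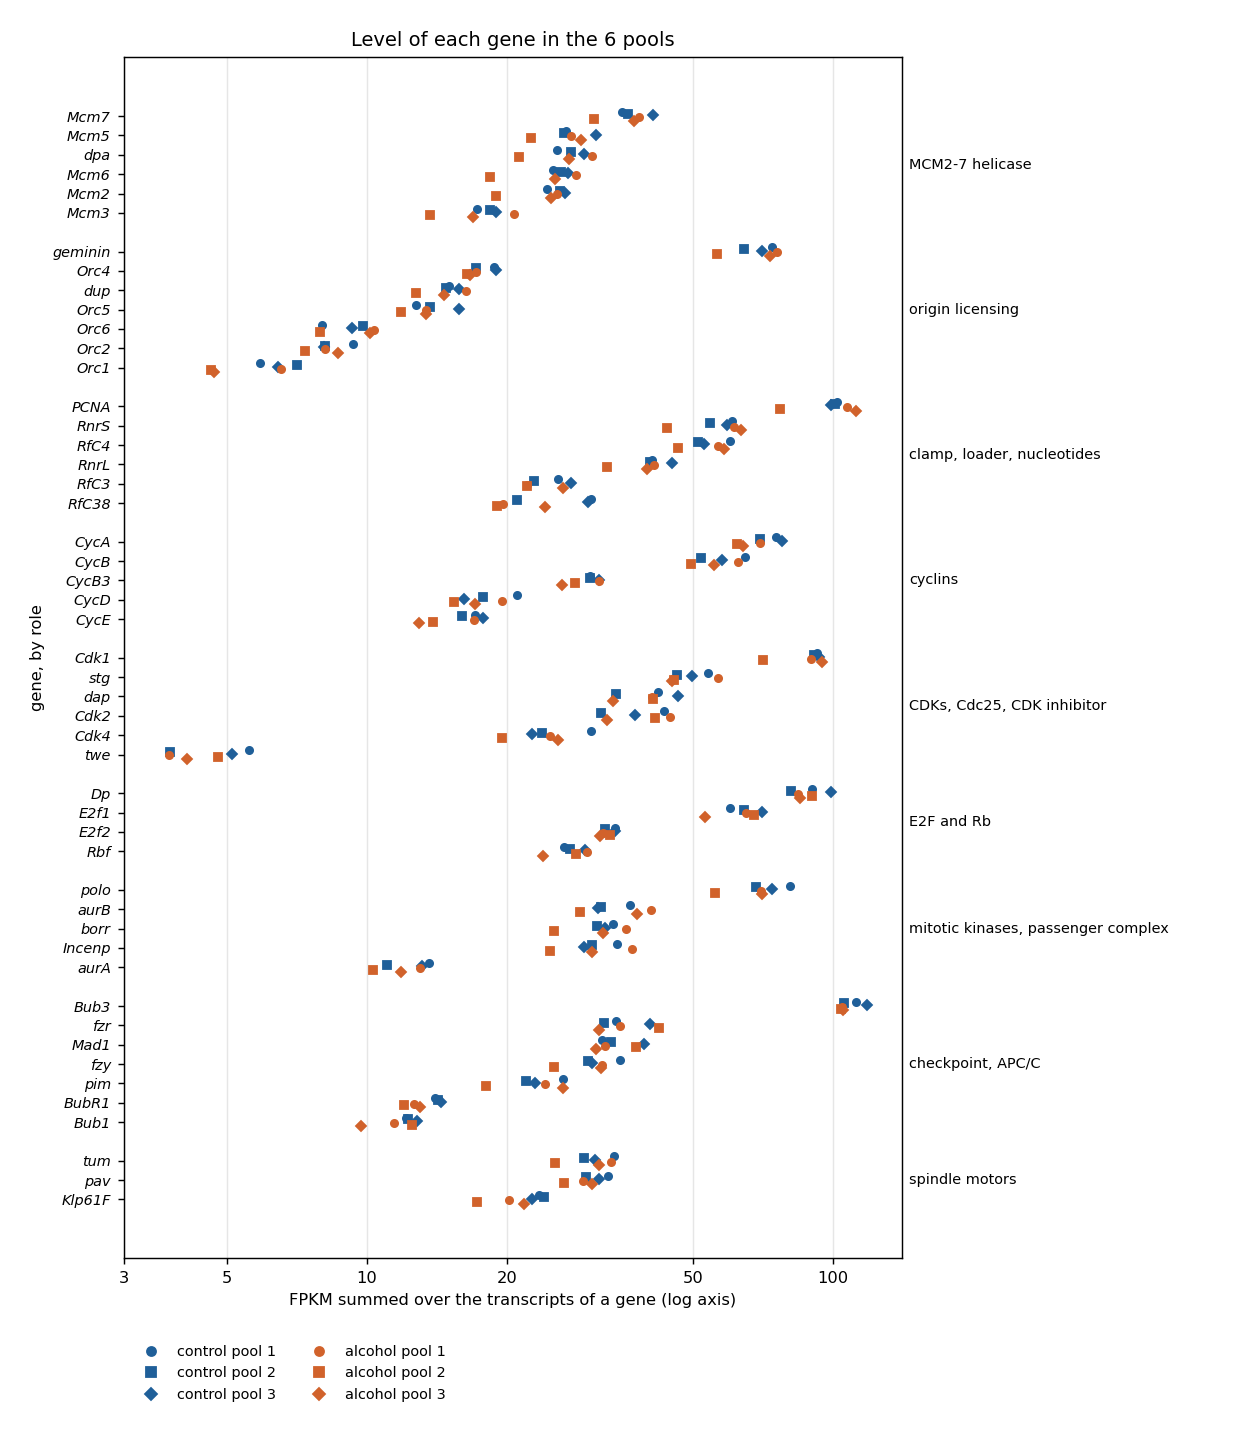
Summed FPKM (log axis) of each of the 49 genes, by role, in the 3 control pools (blue) and the 3 alcohol pools (orange), with 1 marker shape per pool number. The colours intermix in nearly every row, and the orange square of alcohol pool 2 is the leftmost point in 36 of the 49 rows.

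No replication or cell cycle gene was called as different between the groups. Genes with a variance of summed FPKM above 1 were tested by limma on the log2(FPKM + 1) scale, in a model that held the treatment and a library-size covariate (the sum of a pool's lower log2 values), and called at an unadjusted p-value under 0.05 with a change of more than 2-fold. Of the 49 genes 46 could be tested, and 0 were called, where 112 of all 8247 genes tested (1.36%) were called, 1.13% higher and 0.23% lower in alcohol. At an unadjusted p-value under 0.05 alone the count was also 0 of 46, against 282 of 8247 (3.42%). The smallest unadjusted p-value among the members was 0.198, for the kinesin gene *Klp61F*, and the smallest limma adjusted p was 0.999. *Orc2*, *twe* and *BubR1* varied too little for the filter.

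The differences were small as well as uncalled. Log2 fold changes (alcohol over control) ran from −0.28 for *RfC38* to 0.20 for *aurB*, with a median of −0.08 against −0.03 over all genes tested. Of the 46 values 33 (71.7%) were negative, where 57% of all genes tested were negative. The 95% intervals of all 46 lay within a 2-fold change in either direction, with a lowest bound of −0.82 for *RfC38* and a highest bound of 0.64 for *Cdk2*. Such an interval was found for 6814 of the 8247 genes. A change in any of these genes by more than 2-fold therefore lay outside its interval, and smaller changes in either direction lay within it.

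**Figure D2:**
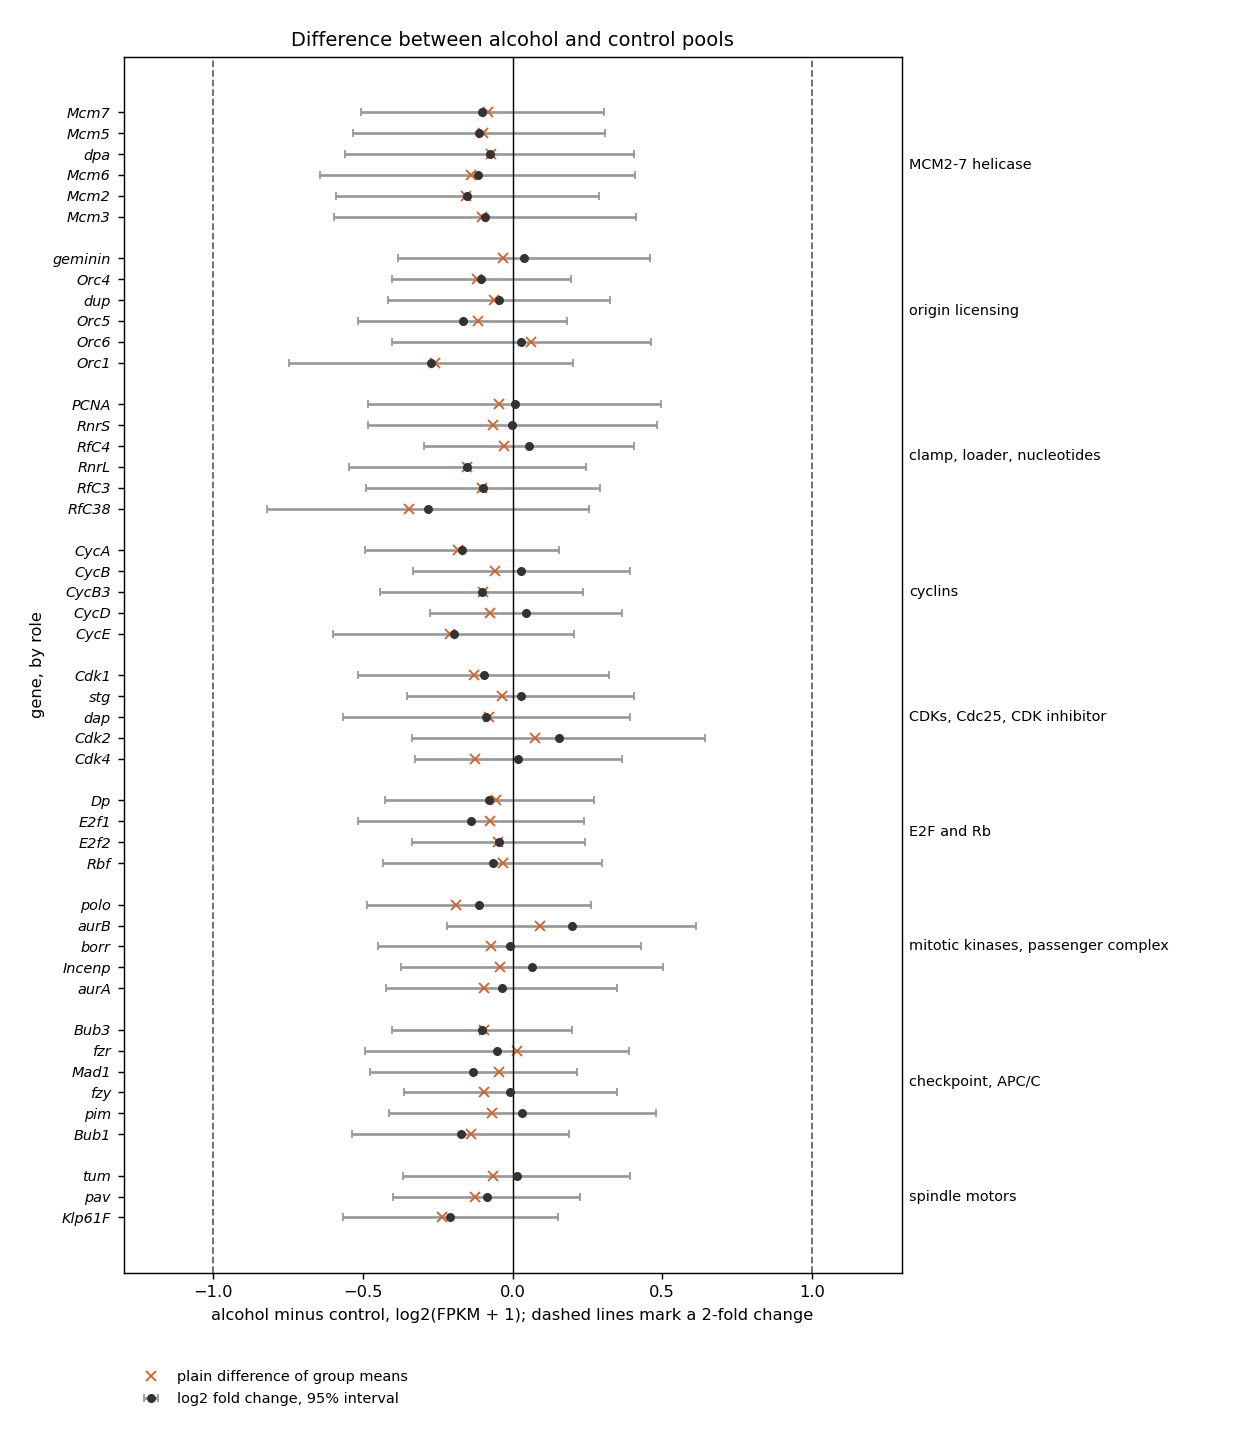
Log2 fold change of each of the 46 tested genes with its 95% interval (black points, grey bars) and the plain difference of the group means (orange crosses), in log2(FPKM + 1), with dashed lines at a 2-fold change. Every bar crosses 0 and stays inside the dashed lines, from −0.82 at the lowest to 0.64 at the highest.

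Groups that did not overlap were found in 4 of the 46 genes tested (8.7%), all lower in alcohol, against 6.21% of all genes tested, 4.44% lower and 1.77% higher. They were *Orc4*, *CycA*, *Bub3* and *Klp61F*, and *BubR1*, which was not tested, also had no overlap. With 3 pools against 3, complete separation has a two-sided exact permutation p of 0.1, the smallest possible. After rescaling each pool to a fixed total (TPM), *CycA*, *Klp61F* and *BubR1* still had no overlap, while *Orc4* and *Bub3* overlapped. *Orc2* and *pav* were then lower without overlap. The share over all genes was not counted on that scale, so these members cannot be set against it.

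The 6 MCM genes, whose products form the replicative helicase, had their lowest level in the same pool. *Mcm7*, the most abundant of them, had control values of 35.2, 36.2 and 41.1 FPKM and alcohol values of 38.4, 30.6 and 37.5 FPKM. *Mcm3*, the least abundant, had control values of 17.2, 18.3 and 18.9 FPKM and alcohol values of 20.7, 13.7 and 16.9 FPKM. Both were lowest in alcohol pool 2, and their groups overlapped. *Mcm6* had control values of 25.1, 26.1 and 27.0 FPKM and alcohol values of 28.1, 18.3 and 25.3 FPKM, with 5 pools close together and alcohol pool 2 apart. The gene *dpa*, which encodes the Mcm4 subunit, had control values of 25.6, 27.4 and 29.2 FPKM and alcohol values of 30.4, 21.2 and 27.2 FPKM and was lowest in the same pool. *Mcm2* (18.9 to 26.6 FPKM) and *Mcm5* (22.5 to 31.0 FPKM over the 6 pools) were also lowest in alcohol pool 2, and the highest pool was alcohol pool 1 or control pool 3 for each of the 6. Their log2 fold changes ran from −0.15 to −0.08, all smaller than their standard errors. Of the exonic bases of *Mcm7*, 81.7% also belong to an antisense RNA gene on the other strand, which is listed at 0 FPKM in every pool.

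Among the genes that license origins, *Orc1*, the largest subunit of the origin recognition complex, had control values of 5.88, 7.08 and 6.43 FPKM and alcohol values of 6.55, 4.63 and 4.69 FPKM. Alcohol pools 2 and 3 were the lowest, but alcohol pool 1 stood within the control range, and the log2 fold change of −0.27 ± 0.185 (SE) was not called. *Orc4* had control values of 18.8, 17.1 and 18.9 FPKM and alcohol values of 17.1, 16.4 and 16.7 FPKM. Alcohol pool 1 fell just short of control pool 2, so that the groups were separate by a narrow margin, with a log2 fold change of −0.10 ± 0.117 (SE). *Orc5* (11.8 to 15.7 FPKM) and *Orc6* (7.91 to 10.3 FPKM) overlapped between groups, as did *Orc2* (7.35 to 9.35 FPKM). The gene *dup*, which encodes Cdt1, the loader of the helicase, had control values of 15.0, 14.7 and 15.8 FPKM and alcohol values of 16.3, 12.8 and 14.6 FPKM. Its inhibitor *geminin*, which keeps origins from being licensed again, had control values of 73.9, 64.3 and 70.4 FPKM and alcohol values of 75.9, 56.3 and 73.2 FPKM. In both, alcohol pool 1 was the highest and alcohol pool 2 the lowest of the 6 pools, and their log2 fold changes were −0.05 and 0.04.

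At the fork, *PCNA*, the clamp that holds polymerases on DNA, had control values of 102, 101 and 99.2 FPKM and alcohol values of 107, 76.8 and 112 FPKM. Alcohol pool 2 was the lowest and alcohol pool 3 the highest, on either side of control pools that differed little, and the log2 fold change was 0.01. The subunits of ribonucleotide reductase, which makes deoxynucleotides, behaved alike: *RnrL* had control values of 40.9, 40.5 and 45.1 FPKM and alcohol values of 41.3, 32.7 and 39.8 FPKM, and *RnrS* had control values of 60.7, 54.6 and 59.4 FPKM and alcohol values of 61.3, 44.1 and 63.5 FPKM. The lowest pool of each was again alcohol pool 2. The clamp loader subunits *RfC3* (22.1 to 27.3 FPKM) and *RfC4* (46.4 to 60.2 FPKM) overlapped between groups. The third subunit gene, *RfC38*, had control values of 30.3, 21.0 and 29.7 FPKM and alcohol values of 19.6, 19.0 and 24.1 FPKM. Control pools 1 and 3 were the highest, but control pool 2 fell among the alcohol pools, and the difference, a log2 fold change of −0.28 ± 0.210 (SE, limma adjusted p = 0.999), was the lowest of the 46.

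*CycA*, the cyclin of S phase and mitosis that is essential for mitosis in the fly, had control values of 75.3, 69.8 and 77.8 FPKM and alcohol values of 69.7, 62.1 and 64.2 FPKM. The 3 alcohol pools were the lowest, although alcohol pool 1 was only just under control pool 2, and the log2 fold change was −0.17 ± 0.126 (SE). The other mitotic cyclins, *CycB* (49.5 to 64.7 FPKM) and *CycB3* (26.2 to 31.4 FPKM), overlapped between the groups. *CycE*, the partner of Cdk2 at the start of S phase, had control values of 17.0, 16.0 and 17.8 FPKM and alcohol values of 17.0, 13.9 and 12.9 FPKM. Its alcohol pools 2 and 3 were the lowest and alcohol pool 1 stood with the controls, at a log2 fold change of −0.20 ± 0.158 (SE). *CycD*, the partner of Cdk4 in growth and G1, ranged over 15.3 to 21.0 FPKM with its highest value in control pool 1.

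Of the kinases, *Cdk1*, the engine of mitosis, had control values of 92.3, 90.9 and 93.5 FPKM and alcohol values of 89.7, 70.6 and 94.7 FPKM. Alcohol pool 2 stood well under the other 5 pools, which lay within a few FPKM of each other. *Cdk4* (19.5 to 30.3 FPKM) was also lowest there, and *Cdk2*, which fires replication origins with cyclin E, was lowest in control pool 2, at control values of 43.4, 31.8 and 37.6 FPKM and alcohol values of 44.6, 41.4 and 32.8 FPKM. The Cdc25 phosphatase *stg*, whose pulses set the timing of mitosis, had control values of 54.0, 46.3 and 49.9 FPKM and alcohol values of 56.5, 45.6 and 45.0 FPKM, and *dap*, the p21/p27-type inhibitor that stops Cdk2, had control values of 42.0, 34.2 and 46.5 FPKM and alcohol values of 40.8, 41.01 and 33.7 FPKM. Both were lowest in alcohol pool 3, with overlapping groups and log2 fold changes of 0.03 and −0.09. *twe*, the germ line counterpart of *stg*, had control values of 5.57, 3.78 and 5.13 FPKM and alcohol values of 3.76, 4.78 and 4.10 FPKM.

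The regulators that switch these genes on and off had their lowest levels in other pools than the helicase genes. *E2f1*, the activating E2F, had control values of 60.2, 64.5 and 70.3 FPKM and alcohol values of 64.9, 67.6 and 53.1 FPKM. *Rbf*, the Rb protein that restrains it, had control values of 26.5, 27.3 and 29.4 FPKM and alcohol values of 29.6, 28.1 and 23.8 FPKM. Alcohol pool 3 was the lowest for both, and for *E2f2*, the repressing E2F, which varied over no more than 31.7 to 34.1 FPKM. *Dp*, the shared partner of both E2Fs, was lowest in control pool 2 at control values of 90.4, 81.3 and 98.96 FPKM and alcohol values of 84.2, 90.3 and 84.9 FPKM. The 4 log2 fold changes ran from −0.14 to −0.05.

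The mitotic kinase *polo*, which acts from centrosome maturation to cytokinesis, had control values of 80.7, 68.5 and 74.1 FPKM and alcohol values of 69.99, 55.9 and 70.5 FPKM. *aurA*, the Aurora kinase of centrosomes, had control values of 13.6, 11.04 and 13.1 FPKM and alcohol values of 13.0, 10.3 and 11.9 FPKM. Control pool 1 was the highest for both, and their groups overlapped. The chromosomal passenger complex corrects attachments of chromosomes to the spindle, and its kinase *aurB* had control values of 36.7, 31.8 and 31.3 FPKM and alcohol values of 40.8, 28.7 and 38.0 FPKM. Alcohol pools 1 and 3 were the highest and alcohol pool 2 the lowest, which gave *aurB* the highest log2 fold change of the 46, 0.20 ± 0.163 (SE, limma adjusted p = 0.999). The scaffold of the complex, *Incenp*, had control values of 34.4, 30.3 and 29.2 FPKM and alcohol values of 37.0, 24.7 and 30.4 FPKM, and its borealin subunit *borr* had control values of 33.7, 31.2 and 32.3 FPKM and alcohol values of 36.0, 25.2 and 32.1 FPKM. All 5 genes of this group were lowest in alcohol pool 2, and their groups overlapped.

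The spindle checkpoint holds back anaphase until every chromosome is attached. *BubR1*, one of its kinases and inhibitors, had control values of 14.0, 14.2 and 14.4 FPKM and alcohol values of 12.6, 12.0 and 13.0 FPKM. All 3 alcohol pools were lower than all 3 control pools. Its variance was under the filter, and in a fit with no filter its log2 fold change was −0.17 ± 0.061 (SE), with an unadjusted p of 0.0449 and a limma adjusted p of 0.947. This did not hold with a filter on a mean of at least 1 FPKM, which *BubR1* passes at a mean of 13.4 FPKM. In that limma fit 0 members had an unadjusted p-value under 0.05. *Bub3* had control values of 112, 106 and 118 FPKM and alcohol values of 105, 104 and 105 FPKM. The alcohol pools were nearly alike and just under the lowest control pool, at a log2 fold change of −0.10 ± 0.118 (SE). *Bub1*, a checkpoint kinase at the kinetochore, had control values of 12.1, 12.3 and 12.8 FPKM and alcohol values of 11.4, 12.5 and 9.73 FPKM. It and *Mad1* (31.0 to 39.3 FPKM) overlapped between the groups, with the lowest value of each in alcohol pool 3.

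The activators of the anaphase-promoting complex stood at opposite ends in alcohol pool 2. *fzy*, the Cdc20 activator used in mitosis, had control values of 34.8, 29.8 and 30.3 FPKM and alcohol values of 32.0, 25.2 and 31.8 FPKM and was lowest in that pool. *fzr*, the Cdh1 activator that holds cells in G1 and drives endocycles, had control values of 34.3, 32.3 and 40.5 FPKM and alcohol values of 34.8, 42.2 and 31.5 FPKM and was highest there. *pim*, the securin that the complex destroys at anaphase, had control values of 26.4, 22.0 and 22.9 FPKM and alcohol values of 24.1, 18.0 and 26.4 FPKM, lowest in the same pool as *fzy*.

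Of the spindle motors, *Klp61F*, the kinesin-5 that keeps spindle poles apart, had control values of 23.3, 23.9 and 22.6 FPKM and alcohol values of 20.1, 17.3 and 21.7 FPKM. Each alcohol pool was lower than each control pool, and the log2 fold change of −0.21 ± 0.141 (SE) had the smallest p-value of the 46 genes but was not called. In the central spindle, the GTPase-activating protein *tum* had control values of 33.9, 29.3 and 30.8 FPKM and alcohol values of 33.4, 25.3 and 31.4 FPKM. It and its partner, the kinesin *pav* (26.5 to 32.8 FPKM), overlapped between the groups and were both lowest in alcohol pool 2.

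A single alcohol pool thus held most of the low values. Alcohol pool 2 was the lowest of the 6 for 34 of the 46 genes tested (73.9%), where it was the lowest for 1629 of all 8247 genes (19.8%). Its median deviation from the 6-pool mean was −0.22 in log2(FPKM + 1) over the 46 genes and −0.02 over all genes. After the all-gene median of each pool was subtracted, it was still the lowest for 32 of the 46 genes (69.6%), against 1575 of all genes (19.1%). After rescaling to TPM without that subtraction the count was 20 of 46 (43.5%) against 874 of all genes (10.6%), and alcohol pool 3 was then the lowest for 21 of 46 (45.7%) against 3697 of all genes (44.8%). Without alcohol pool 2 the median log2 fold change of the members was −0.02, against −0.06 over all genes. Without control pool 3 it was 0.04, against 0.05 over all genes. In both cases 0 genes were called.

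The low values of alcohol pool 2 can be given by role, with no test between roles. Relative to all genes in that pool the median deviation in log2(FPKM + 1) was −0.31 for the 6 helicase genes, −0.29 for the 5 mitotic kinase and passenger genes, −0.27 for the 6 clamp, loader and reductase genes, −0.25 for the 3 spindle motor genes and −0.18 for the 6 tested licensing genes. It was −0.15 for the 5 cyclins and −0.10 for the 5 tested kinase, phosphatase and inhibitor genes. For the 6 tested checkpoint and anaphase genes it was 0.03, and for the 4 E2F and Rb genes 0.05. In this pool the 8 neuron markers summed to 462 FPKM, the highest of the 6 pools, followed by control pool 3 with 427 FPKM. Of the 8, 6 were highest there, while *elav* was highest in control pool 3 and *futsch* in control pool 2. The glia markers summed to 288 FPKM there, under the 297 FPKM of control pool 3. Over the 7 glia markers tested, the median deviation relative to all genes was 0.30. The 11 markers of neuroblasts and precursors summed to 322 FPKM in alcohol pool 2, within the 255 to 342 FPKM of the others. Of that sum *brat* alone gave 166 FPKM. In this pool 4 of the 11 markers (*klu*, *pnt*, *grh* and *l(1)sc*) had their lowest level and *nab* its highest (38.8 FPKM). Over the 7 of these markers that were tested, the median deviation relative to all genes was −0.04. The 6 ring gland markers summed to 258 FPKM there, also the highest of the 6 pools. None of the neuron and neuroblast markers was at 0 in any pool. The 6 fat body genes summed to 604 FPKM there, the lowest of the 6 pools. Of these, 4 were lowest in this pool, while *Lsp1beta* was lowest in control pool 3 and *apolpp* in alcohol pool 1. The 10 markers of the eye and other imaginal discs summed to 161 FPKM there, within the 134 to 174 FPKM of the others. Of these, 3 (*vg*, *nub* and *Dll*) were lowest in this pool, while *ey* and *hth* were highest. The part of cell composition in these values was not tested.

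**Figure D3:**
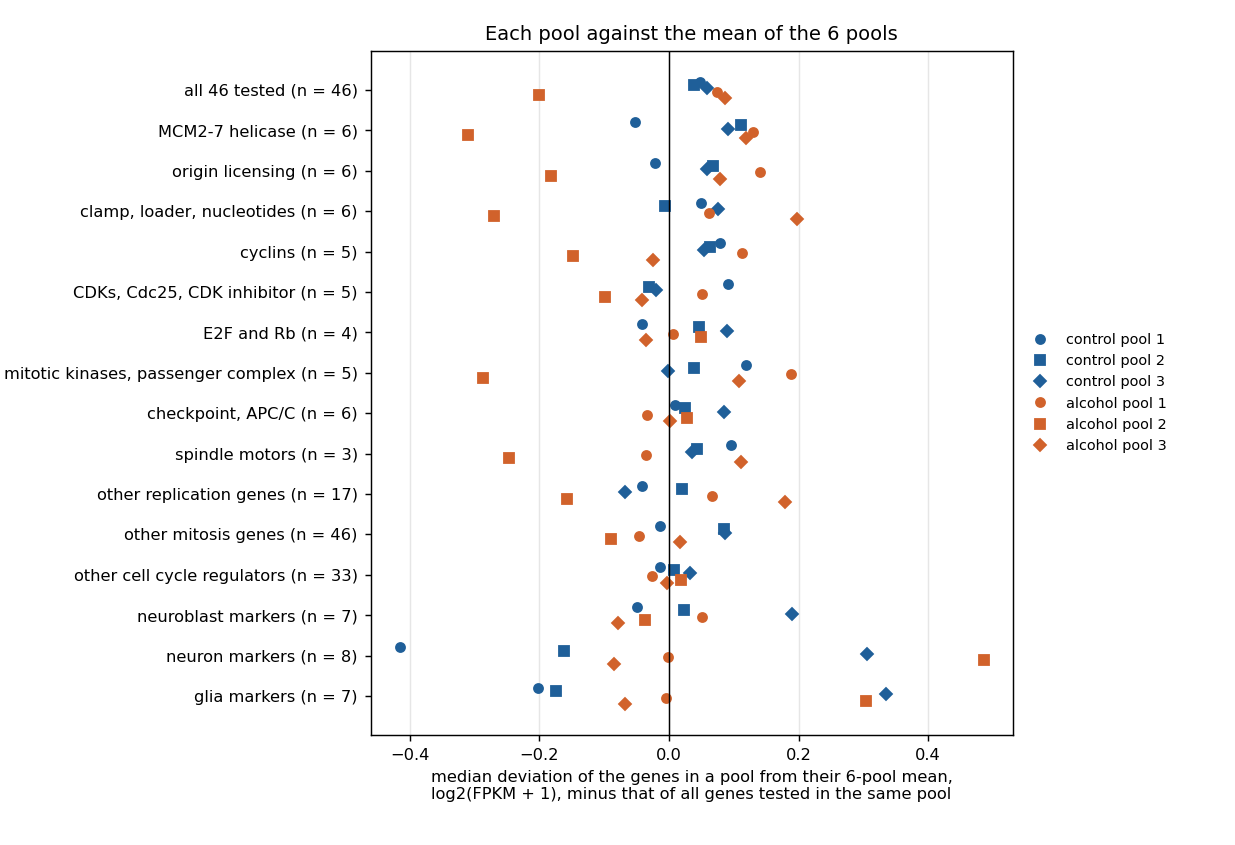
Median deviation of each group of genes in each pool from its 6-pool mean, in log2(FPKM + 1), relative to all genes tested in that pool, for the control pools (blue) and alcohol pools (orange). Alcohol pool 2 (orange square) stands at −0.20 for the 46 genes and at −0.31 for the helicase genes, while the E2F and Rb genes (0.05) and the neuron markers (0.49) lie to the right of 0.

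Further genes of the same pathways were read from lists of other replication, cell cycle and mitosis genes. Of 33 other replication genes, such as polymerase subunits and replication protein A, 32 were in the files and 17 were tested by limma, with 0 called, 0 past the unadjusted p-value of 0.05 and a median log2 fold change of 0.03. Of 43 other cell cycle regulators 33 were tested, with 0 called, 0 at that p-value and a median of −0.10. Of 62 other mitosis genes 46 were tested, with 0 called and a median of −0.14. Negative values were found for 38 of these 46, 8 of the 17 replication genes and 25 of the 33 regulators, against 57% of all genes. Groups lower in alcohol without overlap were found for 8, 1 and 2 of them, against 4.44% of all genes. In the mitosis list 2 of 46 genes passed that p-value, against 3.42% of all genes, both lower in alcohol. Named after their values were seen, they were *msps*, which promotes microtubule growth, with a log2 fold change of −0.37 (limma adjusted p = 0.999), and *sti*, the citron kinase of cytokinesis, with −0.41 (limma adjusted p = 0.999). Alcohol pool 2 was the lowest for 13 of the 17 replication genes, 23 of the 46 mitosis genes and 8 of the 33 other regulators, against 19.8% of all genes. After the all-gene median of each pool was subtracted the counts were 8, 22 and 7, against 19.1% of all genes. After rescaling to TPM without that subtraction they were 6, 5 and 4, against 10.6% of all genes.

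Across the series, each pool held between 2719 and 4244 megabases of aligned sequence. The brain was checked by markers of neurons (262 to 427 FPKM summed in control pools, 286 to 462 in alcohol pools), glia (205 to 297 and 242 to 288) and neuroblasts (279 to 342 and 255 to 322). Genes of salivary gland (14487 to 57286 and 30133 to 45693), fat body (1971 to 5831 and 604 to 3166) and muscle (60.8 to 478 and 95.1 to 373) were also read in every pool. So were markers of the eye and other imaginal discs (155 to 174 and 134 to 165). In the fit with the covariate 6 of 8 muscle genes were called higher in alcohol, against 1.13% of all genes, and 1 of 6 fat body genes lower, against 0.23%. No muscle gene had separate groups, and control pool 1 had the highest muscle sum. The median difference of the 8 was 1.68 in log2 units as fitted and 0.68 between plain group means. The covariate of the gene fit also set control pool 1 apart, at 23842 against 22105 to 22613 in the others. Treatment explained 18.2% of its variance. The 49 genes took 0.307 to 0.371% of all FPKM in the control pools and 0.292 to 0.324% in the alcohol pools.

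At the level of single transcripts a few members were called, where no gene sum was. Of the 94 transcripts 71 passed the variance filter, 13 of the 94 being under 1 FPKM in every pool. Called were 3 of the 71 (4.23%), 2 higher and 1 lower in alcohol, against 564 of all 14645 transcripts tested (3.85%), and 4 of 71 (5.63%) had an unadjusted p-value under 0.05, against 697 (4.76%). Other scalings gave other directions, with 1 higher and 3 lower after rescaling to TPM, and 2 in each direction without the covariate or with quantile normalization. Both shares were near those of all transcripts, and the smallest limma adjusted p was 0.744. Groups that did not overlap were found in 9 of 71 (12.7%), 7 lower and 2 higher in alcohol, against 1130 of all transcripts (7.72%). These 9 were Incenp-RC, Incenp-RB, RfC38-RA, Cdk2-RB, Cdk4-RC, CycA-RC, Bub3-RA, Orc4-RA and Klp61F-RA. Cdk4-RC, the main transcript of *Cdk4*, had control values of 21.2, 13.9 and 15.7 FPKM and alcohol values of 10.9, 10.4 and 13.7 FPKM, all alcohol pools lower, at an uncalled log2 fold change of −0.33. The called transcripts belonged to *Incenp* and *borr*, both of the chromosomal passenger complex.

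*Incenp* had a transcript called in each direction, while its summed FPKM overlapped between the groups. Incenp-RC (chromosome 2R, 7278467 to 7281555 in dm6) had control values of 11.5, 10.2 and 12.9 FPKM and alcohol values of 5.90, 2.30 and 3.39 FPKM. All 3 alcohol pools were under all 3 control pools, and it was called lower with a log2 fold change of −1.31 ± 0.430 (SE, unadjusted p of 0.0304, limma adjusted p = 0.974). Incenp-RB (7278606 to 7281555) had control values of 6.83, 6.41 and 7.12 FPKM and alcohol values of 25.6, 16.2 and 12.5 FPKM. Here all 3 alcohol pools were above all 3 control pools, and it was called higher with a log2 fold change of 1.43 ± 0.379 (SE, unadjusted p of 0.0144, limma adjusted p = 0.835). Incenp-RA (7278606 to 7281795) had control values of 16.1, 13.7 and 9.11 FPKM and alcohol values of 5.43, 6.30 and 14.4 FPKM, with overlapping groups and a log2 fold change of −0.54 that was not called, though it was called after rescaling to TPM (−1.11).

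The annotation shows what tells these transcripts apart. Incenp-RC starts upstream, with 139 exonic bases at its 5′ end that no other listed transcript of the gene holds, and it encodes 754 codons. Both others encode the same 755 codons. Incenp-RA has 240 bases of its own at the 3′ end, and Incenp-RB has 0 bases of its own, so that no stretch of sequence reads its level alone. The form with 754 codons made up 33.4 to 44.3% of the *Incenp* FPKM in the control pools and 9.30 to 16.0% in the alcohol pools, without overlap. Both calls held without the library-size covariate, with TPM and with quantile normalization. With the replicate block and the covariate neither was called (−2.36 for Incenp-RC and 0.27 for Incenp-RB), and the ordinary F-test did not call Incenp-RC. Incenp-RB was not called without alcohol pool 1 (0.995), and Incenp-RC was not called with control pool 1 (−1.23), control pool 2 (−1.42), control pool 3 (−0.85) or alcohol pool 3 (−1.31) left out.

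**Figure D4:**
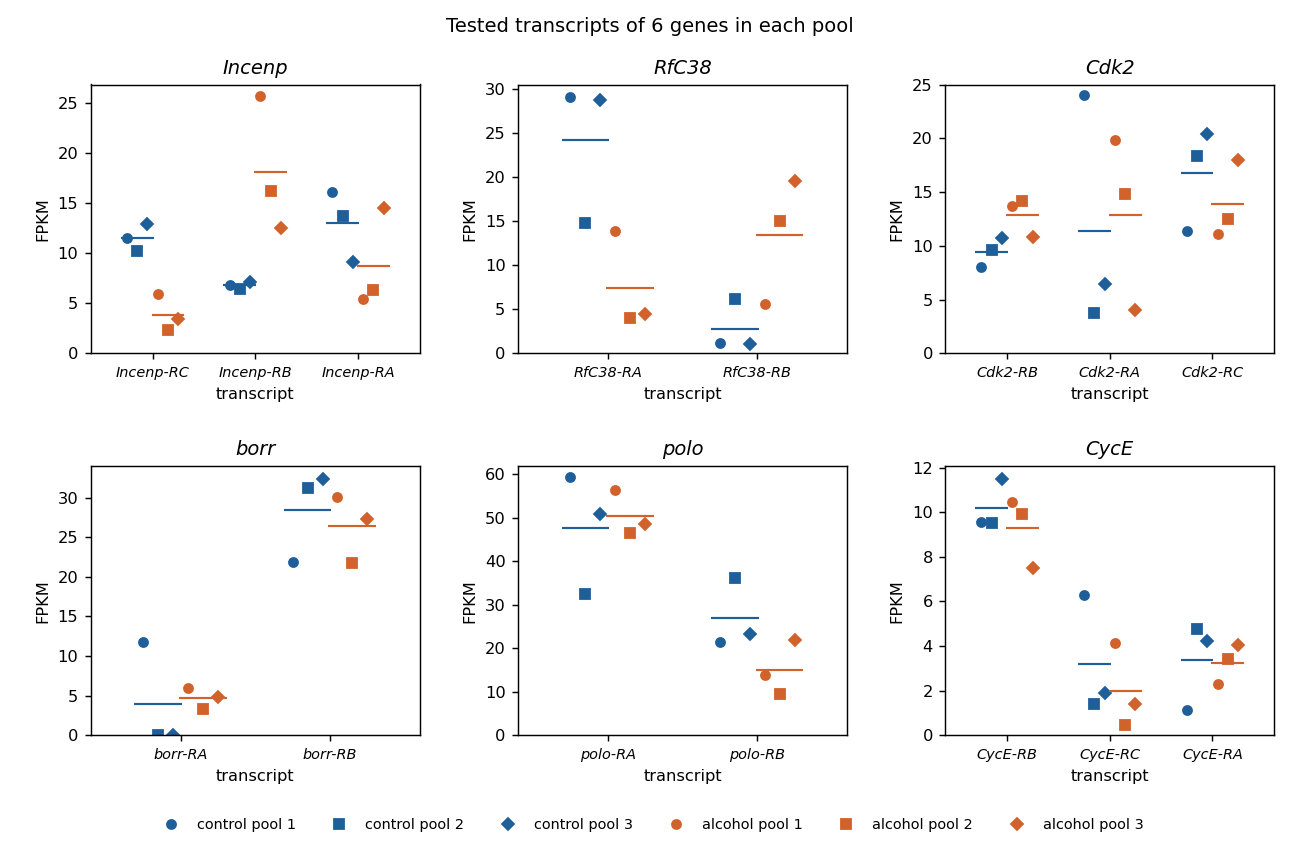
FPKM of the tested transcripts of 6 genes in each control pool (blue) and alcohol pool (orange), with a line at each group mean. Incenp-RC lies at 10.2 to 12.9 FPKM in the control pools and 2.30 to 5.90 in the alcohol pools, Incenp-RB at 6.41 to 7.12 and 12.5 to 25.6, and borr-RA is at 0 in 2 control pools.

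The *borr* gene (chromosome 2L, 9251472 to 9253118 in dm6) gave the other call. Its transcript borr-RA had control values of 11.8, 0 and 0 FPKM and alcohol values of 5.95, 3.36 and 4.76 FPKM. It was listed at 0 in 2 control pools, while the remaining control pool was the highest of all 6, so the groups overlapped. The fitted log2 fold change was 3.07 ± 0.704 (SE, unadjusted p of 0.00818, limma adjusted p = 0.744), against a plain difference of the group means of 1.26 in log2(FPKM + 1). The call was lost without the library-size covariate (1.26), with TPM (2.13) and with quantile normalization (1.31), and was kept with any 1 pool left out (2.51 to 3.59). The fitted value depends on the pseudocount, being 6.60 with a pseudocount of 0.1. The other transcript, borr-RB, had control values of 21.8, 31.2 and 32.3 FPKM and alcohol values of 30.0, 21.8 and 27.3 FPKM, and 12 bases separate them, which give 319 codons in borr-RB against 315 in borr-RA.

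*Cdk2* (chromosome 3R, 20735623 to 20738414 in dm6) held the remaining transcript with an unadjusted p-value under 0.05. Cdk2-RC had control values of 11.4, 18.4 and 20.4 FPKM and alcohol values of 11.1, 12.5 and 18.0 FPKM, with overlapping groups and a log2 fold change of −0.73 (unadjusted p of 0.0334, limma adjusted p = 0.986), under the 2-fold limit. Cdk2-RB had control values of 7.99, 9.64 and 10.7 FPKM and alcohol values of 13.7, 14.1 and 10.8 FPKM, higher in every alcohol pool, though alcohol pool 3 barely passed control pool 3. Cdk2-RA had control values of 24.0, 3.74 and 6.43 FPKM and alcohol values of 19.8, 14.8 and 4.02 FPKM, with control pool 1 and alcohol pool 1 high in both groups. It was not called at a log2 fold change of 1.60, and without control pool 3 (2.78) or alcohol pool 3 (1.76) it was, as with a filter on mean FPKM (1.59) or a mean-variance trend (1.60). It was 0.30 without the covariate and 0.33 with quantile normalization. All 3 encode the same 314 codons, so the listed transcripts differ outside the coding sequence. Of the 1084 bases held only by Cdk2-RC, 1004 also lie on the other strand within exons of CG17267.

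In *RfC38* (chromosome 2L, 11128932 to 11130645 in dm6) RfC38-RA had control values of 29.1, 14.8 and 28.7 FPKM and alcohol values of 13.9, 3.97 and 4.51 FPKM. Control pools were higher than alcohol pools without overlap, and 2 of the alcohol pools were several-fold lower than the rest. RfC38-RB had control values of 1.16, 6.14 and 1.02 FPKM and alcohol values of 5.66, 15.1 and 19.5 FPKM, in the opposite order, with control pool 2 overlapping alcohol pool 1. Their log2 fold changes of −1.28 (unadjusted p of 0.115) and 1.55 (unadjusted p of 0.138) were not called by limma. Without the covariate they were −1.71 and 2.05 and both were called, as was RfC38-RA without alcohol pool 1 (−2.06) and RfC38-RB without control pool 2 (2.33). Without control pool 3 the fit with the covariate gave −0.12 and −0.34, so that RfC38-RB changed sign there. In FPKM, control pools 1 and 2 were still above every alcohol pool for RfC38-RA. The part of the covariate in that change was not tested. The transcripts share their end and encode the same 356 codons, and RfC38-RB has 328 further bases of its own at the 5′ end. Of the gene's exonic bases, 25.2% are shared with *Nup160* on the other strand.

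Differential transcript usage, tested per gene with the F-test of diffSplice in limma, could be read for 19 of the 49 genes. At an adjusted p-value under 0.05 the count was 0 of 19, against 22 of 3630 genes (0.606%). At an unadjusted p-value under 0.05 it was 4 of 19 (21.1%), against 357 of 3630 (9.83%). The 4 genes were *borr* (limma adjusted p = 0.186), *Incenp* (limma adjusted p = 0.296), *Cdk2* (limma adjusted p = 0.382) and *RfC38* (limma adjusted p = 0.484).

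For 41 of the 49 genes every listed transcript encodes the same protein, and 17 of these have several transcripts. The other 8 are *Mcm3*, *CycA*, *CycB*, *CycE*, *E2f1*, *Dp*, *Incenp* and *borr*. In *CycE* the form with 602 codons held 56.0 to 64.8% of the FPKM in the control pools and 57.8 to 71.5% in the alcohol pools, and the forms with 709 codons held nearly all the rest. In *Dp* the form with 441 codons held 64.5 to 83.8% and 77.7 to 81.9%. In *CycA* the form with 491 codons held 3.57 to 4.70% in the control pools and 2.83 to 19.1% in the alcohol pools, the top value being alcohol pool 1. In *CycB* the main form with 530 codons held 83.9 to 95.9% and 59.5 to 88.1%. The shares of these named forms overlapped between the groups. The minor forms of 500 codons in *CycB* (0.363 to 0.456% in the control pools, 0.596 to 2.21% in the alcohol pools) and of 417 codons in *Dp* (0.955 to 1.95% and 0.562 to 0.786%) did not overlap, and neither transcript passed the variance filter.

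Of the remaining genes with several transcripts, *polo* (chromosome 3L, 20309654 to 20313466 in dm6) came closest to these in transcript usage (limma adjusted p = 0.552). Its transcript polo-RB had control values of 21.4, 36.0 and 23.3 FPKM and alcohol values of 13.7, 9.44 and 21.9 FPKM, and the longer polo-RA, which has 656 bases of its own, had control values of 59.3, 32.5 and 50.8 FPKM and alcohol values of 56.2, 46.5 and 48.5 FPKM. The groups of both overlapped. The log2 fold change of polo-RB, −1.07, was not called. It was called after rescaling to TPM (−1.41) and without alcohol pool 3 (−1.20). Both transcripts encode the same 576 codons.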

How the data were processed

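The authors trimmed reads from poly-A selected, stranded libraries with Trimmomatic 0.39, aligned them to dm6 with HISAT2 2.2.0 and quantified transcripts with StringTie 2.1.4. The deposited matrix gives the FPKM and the coverage signal (mean read depth per base) of each transcript in each of the 6 pools, with no read counts. A deposited table of the authors' own comparison, which holds ratios of expression, p-values and q-values, was not used. FPKM was summed per gene name, log2(FPKM + 1) was tested with limma 3.58.1 in R 4.3.3 on features with a variance above 1, with a covariate that sums the log2 values below the 75th percentile of a pool, and p-values were adjusted by Benjamini-Hochberg over all features tested. Of the transcripts 33853 matched the annotation of the same assembly exactly by position, exon number and length, including all 94 described. Whether strand was used in quantification is not given in the sources used here, and 21 of the 49 genes share exonic bases with a gene on the other strand. Transcript isoforms of 1 gene share reads, so their FPKM are estimates. The members, pathway and marker lists and tests were chosen with earlier results of these data known. Values of every pool are given for members called, at an unadjusted p-value under 0.05 or without overlap between groups, for the highest and lowest member of each role and, beyond that rule, for further members as examples; genes of the pathway lists are named where called, apart from 2 named after their values were seen. Exact permutation tests were two-sided. The fits were tested on simulated data. The alternatives were no covariate, a pseudocount of 0.1, other filters, TPM, quantile normalization, other variance models, a replicate block and leaving out each pool.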

Additional observations from a re-analysis of the deposited data

How the results depend on the processing

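The count of genes called was 0 under every alternative run (filters, scalings, variance models, pseudocount, replicate block, each pool left out), as was the count of genes with differential transcript usage, which was not run with the ordinary F-test. With no variance filter 1 gene, BubR1, had an unadjusted p-value under 0.05, and the share over all genes in that fit is not given here. With a filter on a mean of at least 1 FPKM, which BubR1 also passes, the count was 0. The median log2 fold change of the tested genes was −0.08, against −0.03 over all genes. When 1 pool was left out it ranged from −0.123 (without alcohol replicate 1) to 0.0425 (without control replicate 3). The medians of all genes were −0.025 and 0.05 in these fits. With TPM the median of the members was −0.099, against 0.020 over all genes. In 110 of 722 gene values, over 29 genes, the sign differed from that reported, at p-values of 0.467 or more. The count of transcripts called stayed between 2 and 4. It was 2 without control replicate 1 and with the ordinary F-test, which lost Incenp-RC (−1.31). The call of borr-RA was lost without the covariate (1.26), with TPM (2.13) and with quantile normalization (1.31), and RfC38-RA and RfC38-RB were called without the covariate and with quantile normalization (−1.66 and 2.17).

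Same-numbered pools did not deviate in the same direction from the means of their groups (correlations across genes of −0.12, −0.47 and −0.57), so the numbers were not taken as pairs. For pools of different number the correlations ran from −0.18 to 0.64, the highest being control pool 3 with alcohol pool 2. With the replicate block and the covariate 3 transcripts were called, borr-RA (4.89), RfC38-RA (−3.00) and CycA-RA (−2.38, against 0.72 without the block), while Incenp-RC (−2.36) and Incenp-RB (0.27) were not; 0 genes were called and their median was −0.12. With the replicate block and no covariate 4 transcripts were called, both of RfC38 and Incenp-RB and Incenp-RC, 0 genes were called and the median was −0.08. The cause of these differences was not tested. With 3 pools a group the exact permutation test cannot go below 0.1.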
